A study of Mus musculus with 4 samples.

Results

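The Ikaros family was measured with 13 probe sets for 5 genes (Ikzf1 to Ikzf5), out of 45101 probe sets on the array. A probe set is a group of short probes against 1 transcript. Members were all probe sets to which the platform annotation gives a single gene symbol of the family: 2 for Ikzf1, 3 for Ikzf2, 3 for Ikzf3, 3 for Ikzf4 and 2 for Ikzf5. The arrays held RNA of mouse CD4+ T cells (helper T lymphocytes), isolated in the naive state out of spleen, peripheral and mesenteric lymph nodes and grown for 7 days with the mitogenic lectin concanavalin A (2.5 ug/ml). Both groups received TGFb1 (written hTGFb1 in the labels), a cytokine that steers activated naive CD4+ cells towards a regulatory state, at 1 ng/ml. One group of 2 arrays had TGFb1 alone, and the other group of 2 arrays had TGFb1 with the steroid hormone progesterone at 2000 ng/ml. No arrays of untreated cells or of progesterone alone were analysed here, and the labels give no strain, sex or age and do not say whether replicates were separate cultures or animals. A p-value here is thus based on the spread of these samples alone, and that spread may be technical. By Xist and Y-linked genes, cells with TGFb1 alone read as male and those with progesterone as female. Sex and treatment therefore cannot be told apart.

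Ikaros family proteins are zinc finger transcription factors. A first cluster of zinc fingers binds DNA, and a second pair near the carboxyl end joins family members into dimers with each other. Ikaros (Ikzf1) and Aiolos (Ikzf3) direct lymphocyte development and, with corepressor complexes such as NuRD, silence or open chromatin. Helios (Ikzf2) is high in a large share of regulatory T cells (Treg) and Eos (Ikzf4) acts as a corepressor partner of Foxp3, the lineage factor of Treg, whereas Pegasus (Ikzf5) is the more distant, widely expressed member.

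The family was put forward with the results of this comparison in view, namely lower Helios and higher Eos signals with progesterone. Values of the members are therefore a description of these 4 arrays and carry no test; whether a member passed the threshold of the fit is stated as part of that description. Differences are given as TGFb1 plus progesterone minus TGFb1 alone on the scale log2(signal + 16) after quantile normalisation, with the standard error (SE) of a limma fit over all probe sets kept and n = 2 arrays per group. This scale understates the change of dim probe sets. Probe sets with a mean level above the median of all were kept, which held for 10 of the 13 members; 1 each of Ikzf2, Ikzf3 and Ikzf4 did not.

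Helios and Eos transcripts moved in opposite directions. Ikzf2 signal was 1.69-fold lower by its brightest probe set and 2.55-fold lower by its second, and Ikzf4 signal was 1.87-fold and 1.62-fold higher by its brightest and second probe sets. Ikzf1, Ikzf3 and Ikzf5 had differences of 0.34 or less in size on the log2 scale by their 6 kept probe sets. In the fit over 22518 probe sets, 2 family probe sets passed an adjusted p of 0.05 as higher (both Ikzf4) and 2 as lower (both Ikzf2), and 6 did not pass. Over all probe sets 5.99% (1348) passed, 2.36% as higher and 3.62% as lower; the number was 541 without progesterone replicate 1 and 324 without progesterone replicate 2. Since the members were chosen on this comparison, nothing is read from their count.

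**Figure D1:**
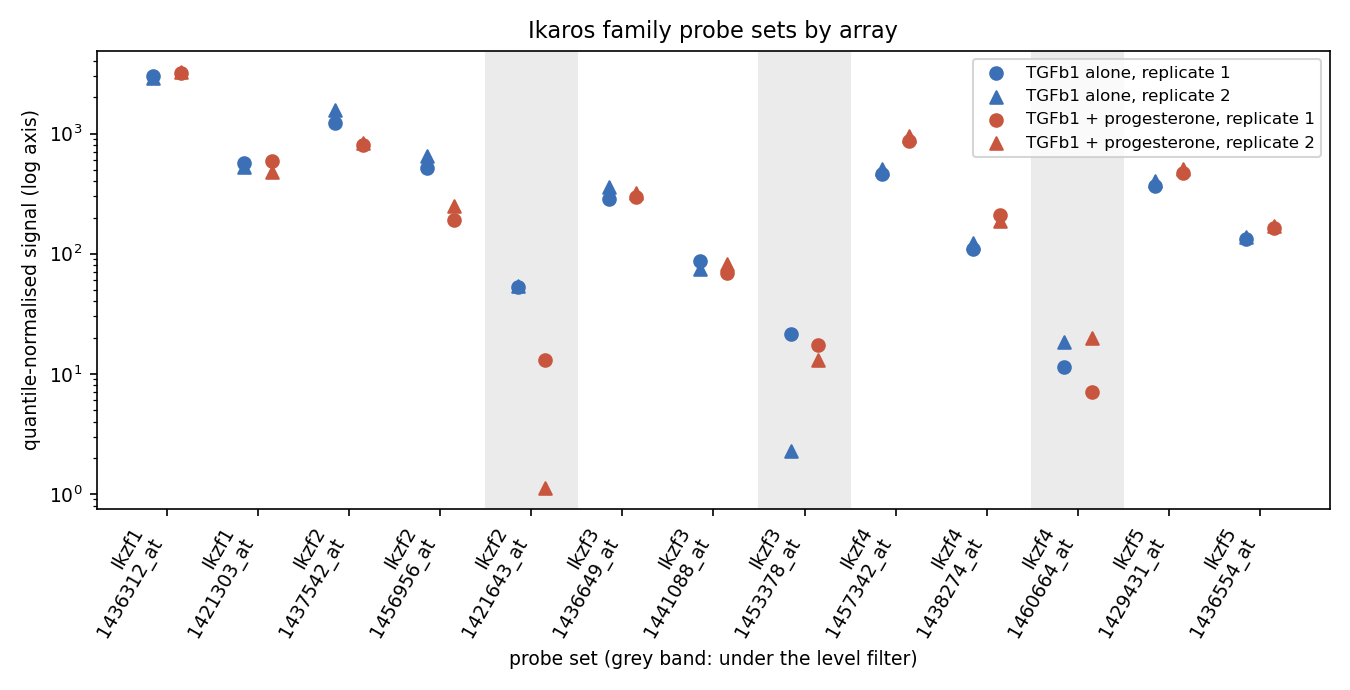
Quantile-normalised signal (log axis) of the 13 Ikaros family probe sets, a circle for replicate 1 and a triangle for replicate 2, with TGFb1 alone in blue and TGFb1 plus progesterone in red. Grey bands mark the 3 probe sets under the level filter; Ikzf2 is lower and both kept Ikzf4 probe sets are higher in both progesterone arrays.

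Ikzf2, on chromosome 1, was lower with progesterone by each of its 3 probe sets. The brightest probe set (1437542_at) had normalised signals of 1232 and 1562 with TGFb1 alone against 797 and 829 with progesterone. As deposited the signals were 1461 and 1706 against 787 and 631. Both progesterone arrays were below both TGFb1 arrays in either form, and the log2 difference was -0.76 ± 0.13 (SE). It was about as large without progesterone replicate 1 (-0.74) or 2 (-0.79), but did not pass the threshold then. The size moved more without TGFb1 replicate 1 (-0.91) or 2 (-0.59). Scaling moved it too, to -1.15 as deposited and -1.27 with centred arrays.

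The second Ikzf2 probe set (1456956_at) was at 516 and 652 with TGFb1 alone against 189 and 250.04 with progesterone after normalisation. Its log2 difference was -1.35 ± 0.17, again with no overlap between groups. The third (1421643_at) lay just under the level filter, at the 49.5th percentile of all mean levels, with deposited signals of 53.7 and 53.4 against 15.6 and 1.15. It was lower too, by a log2 difference of -1.64 ± 0.34 in a fit without the filter, where it did not pass. All 3 Helios probe sets therefore placed the progesterone arrays lower, but by different amounts. Set within each array against the brightest probe set, the second shifted by a further -0.59 with progesterone (-0.75 and -0.43 in the single arrays, which lay within 0.01 of the group mean with TGFb1 alone).

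Ikzf4, on chromosome 10, showed the opposite direction. The brightest probe set (1457342_at) had normalised signals of 459 and 503 with TGFb1 alone against 875 and 953 with progesterone. As deposited they were 526 and 545 against 865 and 721, so the groups did not overlap in either form. The log2 difference was 0.91 ± 0.11. This rise did not pass the threshold with deposited values left unscaled (0.55), after centring the arrays on their medians (0.42) or without progesterone replicate 2 (0.85).

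The second Ikzf4 probe set (1438274_at) gave normalised signals of 109 and 122 with TGFb1 alone against 209 and 186 with progesterone. Its log2 difference was 0.70 ± 0.16, with no overlap between groups. This rise passed, but not without progesterone replicate 1 (0.63), progesterone replicate 2 (0.79) or TGFb1 replicate 1 (0.61), nor with the values as deposited (0.51) or centred (0.38), nor with no level filter or no intensity trend. The third Eos probe set (1460664_at) was dim, with deposited signals of 10.2 and 16.7 against 8.77 and 19.5, and its groups overlapped. Set within each array against the brightest probe set, the second shifted by -0.21 with progesterone (-0.07 and -0.35 in the single arrays). Eos was thus followed by a pair of probe sets that both lay higher, by different amounts, and a dim one that showed no separation.

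The contrast between Eos and Helios can be read within each array, where any scaling of the whole array largely cancels. The log2 difference of Ikzf4 over Ikzf2 (brightest probe set of each), set to 0 at the mean of the TGFb1 arrays, was 0.11 and -0.11 in those arrays and 1.63 and 1.70 with progesterone. The ratio of Eos to Helios signal was thus 3.17-fold higher with progesterone, a log2 shift of 1.66, and the nearest arrays of the 2 groups were 1.53 apart. The SD was 0.15 in the TGFb1 group and 0.04 in the progesterone group (n = 2 each). With the values as deposited the shift was 1.69, and from the second probe set of each gene it was 2.05.

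**Figure D2:**
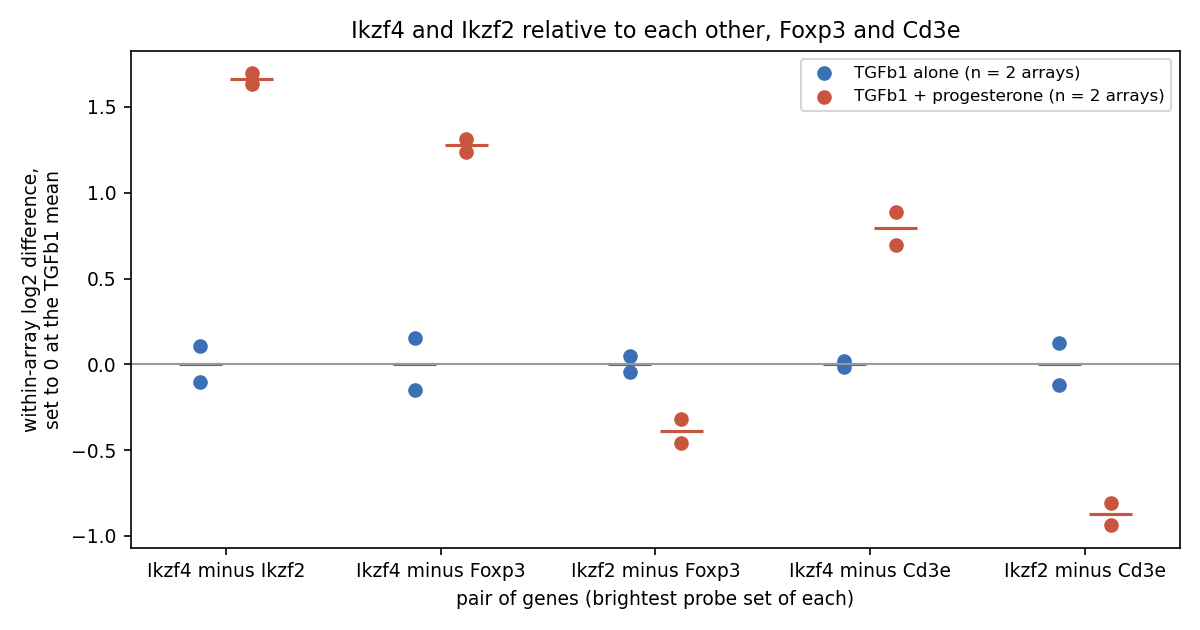
Within-array log2 differences between pairs of genes (vertical axis, set to 0 at the mean of the TGFb1 arrays), with points for single arrays and a bar for each group mean, TGFb1 alone in blue and TGFb1 plus progesterone in red. Ikzf4 over Ikzf2 reads 1.63 and 1.70 with progesterone, and in both progesterone arrays Ikzf2 over Foxp3 and over Cd3e lies below 0 while Ikzf4 over each lies above 0.

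Helios and Eos were next set against genes that mark the cells. Foxp3 was at 886 and 1201 with TGFb1 alone against 742 and 850 with progesterone after normalisation, a log2 difference of -0.37 ± 0.15 that did not pass (limma adjusted p = 0.217). It did pass without TGFb1 replicate 1 (-0.57) and with centred arrays (-0.86), and was at -0.16 without TGFb1 replicate 2. Against Foxp3 within each array, Ikzf2 shifted by -0.39 and Ikzf4 by 1.28. Against Cd3e, a chain of the T cell receptor complex, Ikzf2 shifted by -0.87 and Ikzf4 by 0.79. Cd3e itself was at 0.11 ± 0.08 and did not pass, whereas some other T cell markers, such as Cd2 (-0.21), lay lower. Helios was therefore lower, and Eos higher, relative to both a Treg and a general T cell gene in each progesterone array. In bulk RNA, fewer cells of a type and less RNA per cell cannot be told apart.

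Ikzf1, on chromosome 11, is the founding member and is expressed across blood lineages. Its brightest probe set (1436312_at) had normalised signals of 3001 and 2916 with TGFb1 alone against 3169.9 and 3285 with progesterone, a log2 difference of 0.12 ± 0.07 that did not pass. The groups did not overlap, but the order turned with scaling. As deposited the signals were 3659 and 3151 against 3050.1 and 2446, with progesterone lower (-0.31), and with centred arrays the difference was -0.44 and passed the threshold. The other probe set (1421303_at) was at 574 and 528 against 588 and 483, with overlapping groups and a difference of -0.05 ± 0.13. The direction of the brightest Ikaros probe set thus depended on the scaling.

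Ikzf3, also on chromosome 11, encodes Aiolos, which silences Il2 in helper cells. The brightest probe set (1436649_at) had normalised signals of 286 and 358 with TGFb1 alone and 295 and 323 with progesterone, and the second (1441088_at) had 87.5 and 74.5 against 69.2 and 81.6. Both had overlapping groups, with differences of -0.05 ± 0.15 and -0.09 ± 0.19. The third (1453378_at) was under the level filter, at deposited signals of 19.6 and 1.96 against 20.8 and 12.8. None of the 3 Aiolos probe sets separated the groups after normalisation; as deposited, the brightest lay lower with progesterone without overlap (322 and 384 against 297 and 255; difference -0.34) and so did the second (92.5 and 75.2 against 74.6 and 69.7; -0.17), neither of which passed.

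Ikzf5, on chromosome 7, encodes Pegasus, which recognises DNA unlike that bound by the other members. Its probe sets gave 367 and 404 against 474 and 509 (1429431_at) and 133 and 137 against 164 and 170.1 (1436554_at) after normalisation. The log2 differences were 0.34 ± 0.12 and 0.28 ± 0.15, neither of which passed. Both had higher progesterone arrays without overlap after quantile normalisation, yet overlapping groups as deposited (418 and 436 against 471 and 393 for the first), where the differences were 0.01 and 0.08. Within each array against Cd3e, the brightest Ikzf5 probe set shifted by 0.23, that of Ikzf1 by 0.01 and that of Ikzf3 by -0.16.

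Of the 10 kept members, 5 had higher and 2 lower progesterone arrays with no overlap. Among all kept probe sets 29.3% lay higher and 24% lower without overlap, 53.2% in all, so separation of 2 arrays from 2 was common on these arrays.

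**Figure D3:**
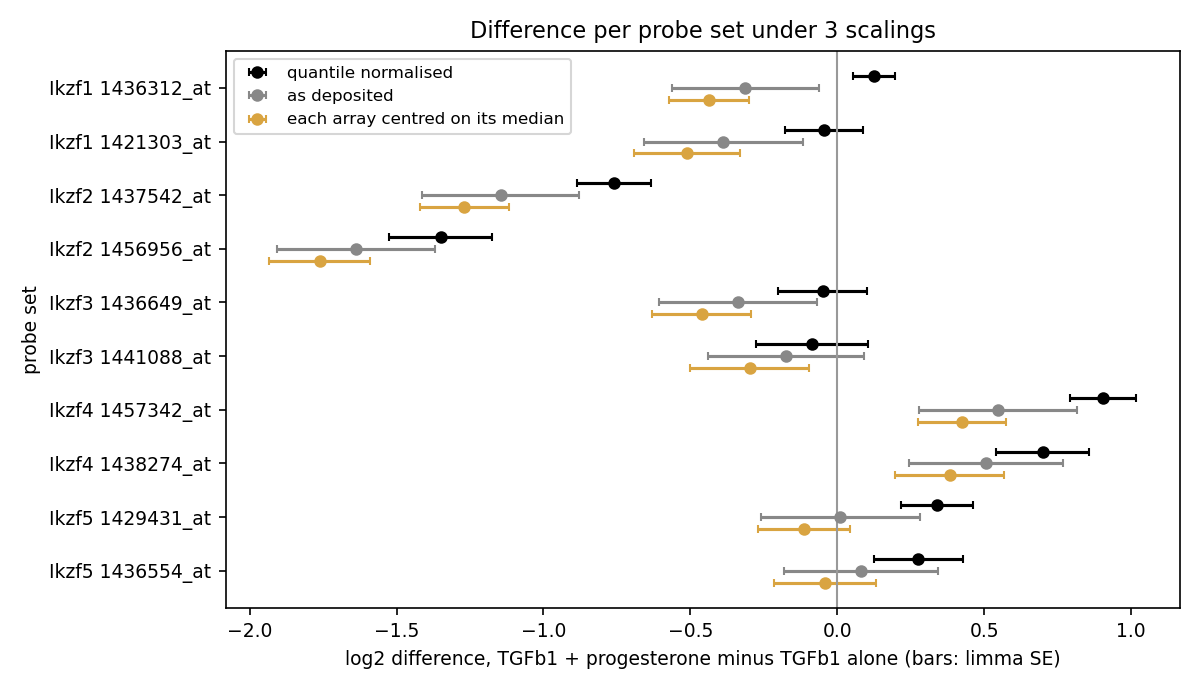
Log2 difference (TGFb1 plus progesterone minus TGFb1 alone, horizontal axis, bars are the limma SE, n = 2 arrays per group) of the 10 kept Ikaros family probe sets under quantile normalisation, as deposited and after centring the arrays on their medians. The Ikzf2 probe sets stay below 0 and the Ikzf4 probe sets above 0 under all 3, whereas Ikzf1 1436312_at and Ikzf5 cross 0.

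The groups differed in other respects as well. Trimmed mean deposited signals were 155 and 145 with TGFb1 alone and 138 and 108 with progesterone, which is why arrays were normalised. Median signals ran the other way, at 23.6 and 23.5 against 29.9 and 24.4, so the distributions differed in shape. With scaling the split of all called probe sets turned from 532 up and 816 down to 287 up and 1298 down as deposited and 269 up and 5264 down with centred arrays, where the median of all genes was at -0.22 and -0.34 (0.02 after quantile normalisation). All 5 cell cycle markers on the array were lower, led by Birc5 (-3.04), with summed normalised signals of 11327 and 7644 against 1842 and 1037. Xist, expressed from the inactive X of female cells, was higher by 5.58 (normalised signals of 10.6 and 10.8 against 1432 and 1107). The Y-linked genes Eif2s3y (-5.18, 596 and 671 against 3.32 and 0.50), Kdm5d (-3.77) and Uty (-2.56) were lower. Sex-linked genes thus read as male in both TGFb1 arrays and as female in both progesterone arrays. The part of cell cycle state in the Ikaros family values was not tested, and sex of the cells and treatment cannot be told apart here.

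Markers of the cell types that carry Ikaros family genes were then compared. Over all 10501 genes 7.3% passed, and 2475 had an unadjusted limma p under 0.05. The 8 T cell markers on the array had summed normalised signals of 31506 and 33135 against 31123 and 31567, and none passed by limma. An unadjusted limma p under 0.05 was found for 3, all lower with progesterone: Cd4 (-0.34), Cd5 (-0.21) and Cd2 (-0.21). The others lay between -0.05 (Thy1) and 0.13 (Cd28). Brightest were Cd3d (6370 to 6775 over the arrays) and Cd2 (5376 and 5473 against 4741 and 4610). Of 10 Treg markers on the array 1 rose and 1 fell, and 7 had an unadjusted p under 0.05. Their sums were 12195 and 12635 against 14770 and 14443. Without Itgae the sums were 11260 and 11684 against 11162 and 10619.8. The one that rose was Itgae, the CD103 integrin chain (1.96 ± 0.08, limma adjusted p = 5.9e-05), and the one that fell was Ctla4, an inhibitory receptor (-0.46 ± 0.09, limma adjusted p = 0.028). The other Treg genes had values on both sides of 0: Nrp1, a receptor also used to mark thymic Treg, was at 0.67 ± 0.17 (adjusted p = 0.0646; 0.38 without TGFb1 replicate 1 and, passing, 0.94 without TGFb1 replicate 2), Tnfrsf18 at -0.04 ± 0.09 and Il2ra at -0.38 ± 0.11.

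In each list of another cell type at most 1 gene passed, beside 7.3% of all genes. The 8 myeloid markers summed to 484 and 269 against 1009 and 1182, mostly through the lysozyme gene Lyz2 (2.69 ± 0.39, adjusted p = 0.00774). The other kept myeloid markers did not pass. Cd68 was at 0.66, Adgre1 at 0.57, Fcgr3 at 0.55, Tyrobp at 0.53 ± 0.27 and Csf1r at 0.17 (up to 0.94 by another probe set), whereas Itgam was at -0.81 ± 0.38. Cd14 was under the filter. The 7 B cell markers summed to 3252 and 3866 against 2019 and 1967, nearly all from Ighm (-0.92 ± 0.10, adjusted p = 0.00284, another probe set at 0.20). The other kept B cell markers did not pass and were at 0.71 ± 0.32 (Cd79a), 0.47 ± 0.25 (Cd22), 0.42 ± 0.27 (Blk) and 0.16 ± 0.24 (Cd79b), with Ms4a1 and Pax5 under the level filter. Of 5 plasmacytoid dendritic cell markers (605 and 543 against 718 and 721) Ccr9 rose (0.82 ± 0.19, adjusted p = 0.049). Ccr9 was read from 1 dim _x_at probe set (41.8 and 38.1 against 83.6 and 82.2). Its call was lost as deposited (0.79) and with a pseudocount of 4 (0.98). Tcf4 was at 0.49 ± 0.20 (0.03 to 0.75 over its kept probe sets) and did not pass. Irf8 was at 0.27 ± 0.13, Bst2 at 0.08 ± 0.16 and the defining gene Siglech was under the filter. Of 4 NK cell markers (857 and 901 against 520 and 525) Klrd1 fell (-0.67 ± 0.13, adjusted p = 0.0231) and Ncr1 was under the filter. Eomes (-0.76 ± 0.24) and Klrk1 (-0.76 ± 0.19) were lower too but did not pass. All 3 kept NK markers had an unadjusted limma p under 0.05. The mast cell markers summed to 1443 and 987 against 1192 and 1499 with Kit up (1.09 ± 0.17). Of the others Ms4a2 was at 0.96 ± 0.23, Fcer1a at 0.49 ± 0.21 and Cpa3 at -0.33 ± 0.20, and Hdc was under the filter. The CD8 genes Cd8a (-0.16) and Cd8b1 (-0.31) did not pass and summed to 143 and 169.7 against 154 and 102. The calls of Ctla4, Lyz2, Klrd1 and Ccr9 were lost without either progesterone array, that of Kit without progesterone replicate 2, that of Klrd1 also without TGFb1 replicate 1 and that of Ccr9 without either TGFb1 array. The part of these cells in the Ikaros family values was not tested.

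Transcription factors that act with Foxp3, among which Eos is counted, changed in both directions. Of 19 kept genes of this list 3 rose and 3 fell, with a median of 0.01 beside 0.02 for all 10501 genes, of which 7.3% passed (2.63% up and 4.68% down). Bcl11b, a factor of T cell identity, rose (0.72 ± 0.08, limma adjusted p = 0.00324), as did Stat5a, the signal carrier of interleukin 2 (0.55 ± 0.12, adjusted p = 0.0365), and Foxo1, a quiescence factor (0.38 ± 0.09, adjusted p = 0.0415). The falls were in Myb (-1.11 ± 0.13, adjusted p = 0.00313), the AP-1 partner Batf (-0.71 ± 0.12, adjusted p = 0.0143) and Irf4 (-0.51 ± 0.10, adjusted p = 0.0228). Each rise was lost with the values as deposited (0.30, 0.16 and -0.05), while the falls passed there (-1.42, -1.04 and -0.89), and without progesterone replicate 2 none of the 6 passed. Without progesterone replicate 1 only Bcl11b and Myb did. Stat5a was also lost without TGFb1 replicate 1 (0.42), and Foxo1 without either TGFb1 array and when probe sets of the _s_at class were left out (0.14, from another probe set).

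Satb1, a chromatin organiser that Eos and Foxp3 are known to repress, had normalised signals of 2696 and 3295 with TGFb1 alone and 3899 and 4053 with progesterone. Its difference of 0.41 ± 0.10 did not pass (limma adjusted p = 0.0565). It passed as a rise without TGFb1 replicate 2 (0.56), with a robust variance model and without _x_at and _s_at probe sets, and was at 0.27 without TGFb1 replicate 1, -0.01 as deposited and -0.14 with centred arrays. Lef1, at 0.06 ± 0.09, and Gata1, at -0.21 ± 0.25, did not pass either. Of Irf4, Satb1, Lef1 and Gata1, which have been described together with Eos as partners of Foxp3, Irf4 alone passed in this fit.

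Corepressor genes through which Ikaros family proteins act were followed next. Of 19 kept genes 1 fell and none rose, beside 7.3% called of all 10501 genes. The median was -0.05, in a range from -0.82 to 0.57. An unadjusted limma p under 0.05 was found for 3 of them, and for 2475 of all genes. The one that fell was Sap30, a SIN3 complex subunit (-0.82 ± 0.18, limma adjusted p = 0.0384), which did not pass without TGFb1 replicate 1 (-0.59) or without either progesterone array; without TGFb1 replicate 2 another gene passed as higher. Ctbp1, the corepressor known to bind Eos, was at 1317 and 1412 against 1405 and 1613 (0.14 ± 0.10, adjusted p = 0.472), and the NuRD ATPase gene Chd4 was at -0.12 ± 0.11. With centred arrays 13 of the 19 fell, alongside the shift of all genes.

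The cullin 4 ubiquitin ligase with cereblon, which drugs of the thalidomide class direct to Ikaros and Aiolos, was also followed. None of its 10 kept genes passed in the limma fit, beside 7.3% of all genes, and 1 had an unadjusted p under 0.05. The median was -0.07, from -0.25 (Crbn itself, ± 0.09, adjusted p = 0.169) to 0.17 (Rbx1). With centred arrays 8 of these fell.

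Of 14 genes known as targets of Ikaros family factors in lymphocytes, 8 passed the level filter, and only 4 lay in the upper 25% by level. None of the 8 passed by limma, beside 7.3% of all 10501 genes, and the median was -0.22. An unadjusted limma p under 0.05 was found for 2 of them, and for 2475 of all genes. With so few genes, several of them dim, nothing is read from these counts. Il2, which Ikaros family members repress, was at deposited signals of 7.87 and 10.2 with TGFb1 alone and 17.4 and 4.04 with progesterone, and Ifng and Il10 were under the filter as well. The growth regulator gene Myc was nearest to the threshold (-0.46 ± 0.11, adjusted p = 0.0507), and Cd4, whose silencing Ikaros is known to affect, was at -0.34 ± 0.10 (adjusted p = 0.0972). Both Myc (-0.81) and Cd4 (-0.77) passed as falls with the deposited values. There the median of all genes was itself at -0.22, and the fit did not use each probe set's own spread. Without TGFb1 replicate 1 Cd4 was at -0.45 and Myc at -0.40, and without TGFb1 replicate 2 they were at -0.22 and -0.51.

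**Figure D4:**
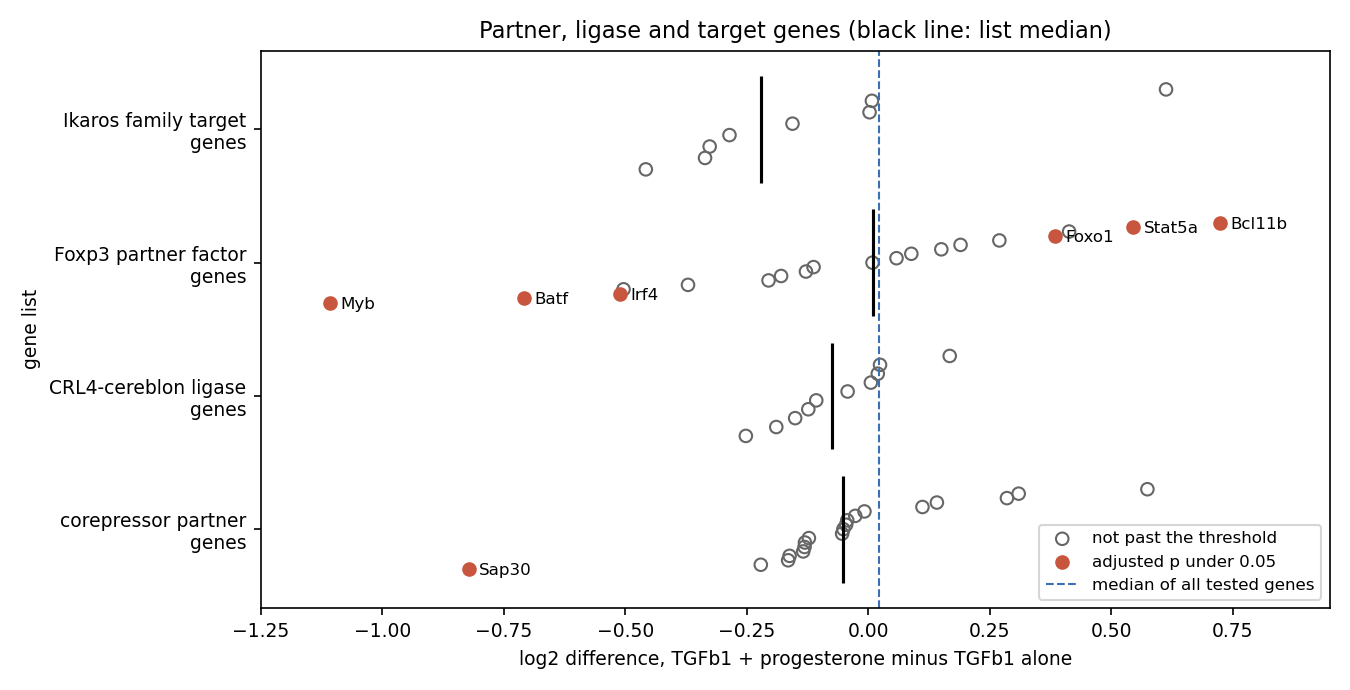
Log2 difference (horizontal axis, TGFb1 plus progesterone minus TGFb1 alone) of each kept gene of 4 lists, filled and named where the limma adjusted p was under 0.05, with a black line at each list's median and a dashed line at the median of all 10501 genes (0.02). Of the Foxp3 partner factors 3 rise and 3 fall, and of the corepressor genes only Sap30 passes.

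The genes whose profile over the 4 arrays lay closest to that of Ikzf4 were Ube2e2, a ubiquitin-conjugating enzyme gene, Golm1, a Golgi membrane protein gene, and Znrf1, a ubiquitin ligase gene. Their root mean square distances from the Ikzf4 profile, each profile centred on its own mean, were 0.03 in log2 units, among 10500 genes ranked. Closest to Ikzf2 were Mapk12, which encodes a p38 kinase (0.02), the mitochondrial nucleotide carrier gene Slc25a33 (0.03) and the interferon regulatory factor gene Irf5 (0.04). Irf5, for example, was at 202 and 267 against 131 and 143. A profile of 4 arrays is a single contrast with its spread, so these likenesses are a description only.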

How the data were processed

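RNA of 4 samples was measured on arrays of 45101 probe sets. The authors deposited linear signal intensity per probe set, and the submitters' processing notes name MAS5; its version and any scaling are not given in the sources used here. MAS5 merges the probes of a set within 1 array. Precision is limited by the number of arrays, which leaves 2 residual degrees of freedom.

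Members and gene lists were chosen with earlier results of these data known. Controls (64 probe sets) were dropped, and 34945 of the other 45037 had 1 gene, 932 several and 9160 none; symbols were updated by Entrez identifier in a RefSeq table (GRCm38.p6), which matched 34741. Signals were quantile normalised and taken as log2(signal + 16), and 22518 probe sets with a mean above the median were kept. Differences were fitted with limma 3.58.1 in R 4.3.3 (eBayes with an intensity trend, no covariates), with Benjamini-Hochberg adjustment over all kept probe sets and a threshold of 0.05; every adjusted p is from this fit. In lists a gene is its kept probe set with the highest mean. Genes were named by rule: all members, Foxp3, Satb1, Irf4, Lef1, Gata1 and Ctbp1, up to 4 called genes per list (for the Foxp3 partners all 6 are given), the brightest markers and the 3 nearest profiles to Ikzf4 and to Ikzf2. Other genes were named after their values were seen. Alternatives were other scalings, pseudocounts of 4 and 64, other level filters and variance models, the replicate number as a block, each array left out, and no _x_at or _s_at probe sets.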

Additional observations from a re-analysis of the deposited data

How the results depend on the processing

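The shift of Ikzf4 over Ikzf2 ran from 1.56 to 1.74 under the 14 alternatives. It kept its direction, and so did the 2 kept probe sets of each gene. Level filters, variance models, the block and the probe set class cannot change these differences (shift of 1.66 in each), so they are no check of direction. Centring cannot change the shift of the deposited values either (1.69 in both). Only scaling, pseudocounts and arrays left out could move the values. The second Ikzf2 probe set passed under all 14; the brightest did not pass without a level filter, without an intensity trend or without either progesterone array. The count of called family probe sets (4) was 2 as deposited, without a level filter and without a trend, and 1 to 4 when single arrays were left out. As deposited and with centred arrays, Ikzf1 1436312_at turned to -0.31 and -0.44, and with centred arrays Ikzf5 1429431_at and 1436554_at turned to -0.11 and -0.043. Leaving out single arrays moved Ikzf1 1421303_at between -0.18 and 0.093, Ikzf3 1436649_at between -0.20 and 0.10 and Ikzf3 1441088_at between -0.19 and 0.013. The cause was not tested; as deposited, the prior variance had infinite degrees of freedom, so each probe set's own spread was not used.

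Over all probe sets 1348 were called, against 5533 with centred arrays, 534 without a level filter, 829 in the upper 25% by level and 481 without a trend, and 324 (without progesterone replicate 2) to 1634 when single arrays were left out. With the replicate number as a block 3152 were called, with 4 of the family, and Foxp3 passed as a fall and Satb1 and Nrp1 as rises; the deviations of same-numbered arrays correlated at 0.18 over 2 pairs, which does not establish pairing. Corepressor genes had 13 called with centred arrays, 0 without a level filter, 0 without a trend and 2 with the block, and 0 to 2 when arrays were left out. Ligase genes had 8 called with centred arrays. Foxp3 partners had 3 called as deposited, 10 centred, 3 without a level filter and 1 without a trend, and 0 to 6 when arrays were left out. Target genes had 2 called as deposited, centred and with the block, 1 with the robust variance model and without _x_at and _s_at probe sets, and 0 to 1 when arrays were left out. When an array is left out, the remaining one of its group is assumed to vary like the other group.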
